A study of Mus musculus with 8 samples.

Results

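The 10 genes described here encode noncollagen proteins of cartilage and joint matrix, namely Acan, Hapln1, Matn1, Matn3, Matn4, Comp, Chad, 3110079O15Rik (now named Snorc), Ucma and Prg4. They were taken by gene symbol from the 31607 genes of the authors' deposited table, and each symbol was found once. The choice of genes was made with earlier results of these data known. The study used bulk RNA sequencing of lung mesenchymal cells from adult mice, with 4 HhipCKO and 4 Control libraries. HhipCKO mice are labelled UBCcreER/Myh11creER/Hhipflox/flox, which names a ubiquitin C and a smooth muscle myosin promoter as the drivers of a tamoxifen-activated recombinase. Control mice are labelled Hhipflox/flox with no recombinase named, and tamoxifen was injected in both groups, so loss of Hhip and presence of the recombinase cannot be told apart. The deleted gene encodes a cell-surface inhibitor that captures hedgehog ligands. The cells were sorted as DAPI-negative and free of CD45, CD31 and Epcam, whereas the extraction protocol speaks of cultured cells. Whether a culture step was used is not settled by the labels, nor is whether each library came from its own mouse.

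Cartilage matrix is a hydrated gel in which a fine collagen network holds very large complexes of aggrecan and hyaluronan. Aggrecan, a proteoglycan loaded with chondroitin sulfate chains, is anchored to hyaluronan by a link protein, and adaptor proteins such as the matrilins and cartilage oligomeric matrix protein tie the complexes to collagen. Joint surfaces are in addition lubricated by the mucin-like proteoglycan lubricin. In mice, airway cartilage lies in the trachea and main bronchi, outside the peripheral lung.

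The deposited table gives each gene 1 comparison between the groups and no value per library, so every result below is the authors' estimate with its standard error and cannot be shown library by library. Mean normalized counts sum to 128669692 per library. Scaling factors of the libraries, read from the table's lowest entries, lay between 0.939 and 1.004 in Control and between 1.03 and 1.06 in HhipCKO libraries. Hhip itself had a log2 fold change of -2.62 ± 0.32 (SE) per the authors' deposited table. Transcripts of the surface markers sorted against, Ptprc at 0.54 ± 0.55, Pecam1 at -0.40 ± 0.25 and Epcam at 0.59 ± 0.48 (log2 fold change, SE), did not pass an adjusted p of 0.05 per the authors' deposited table.

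Cartilage and joint matrix genes were lower in the HhipCKO libraries. Of the 10, 9 were tested, and 5 of these fell at an adjusted p of 0.05, namely Prg4, Hapln1, 3110079O15Rik, Comp and Acan. None rose, and Chad, Ucma, Matn1 and Matn4 did not pass. Matn3, the least abundant, had a mean count below the filter and so no adjusted p. In all, 6.98% of the 17469 genes tested in that table passed in either direction, 534 upwards and 685 downwards, and 3.92% passed downwards. The fold change was negative for all 10 genes, with a median of -1.96 on the log2 scale over the 9 tested, where the median of all tested genes was 0.019. By unadjusted p under 0.05, 8 of the 9 tested genes were lower, against 10.9% of all tested genes. Since the genes were chosen with earlier results of these data known, these comparisons with all tested genes are descriptive only. In bulk RNA, fewer cells of a type and less RNA in each cell cannot be told apart. The 5 calls were down to 4 without a filter on mean count or with a trend of fold change on transcript length removed, Acan being the one lost, and none passed when Wald statistics were scaled by a robust SD of 1.53 or tested against a minimum of 1.5-fold. At those last settings 5 and 6 of the 10 genes had an unadjusted p under 0.05. The matching share of all tested genes was not computed, so these counts have nothing to be set against.

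**Figure D1:**
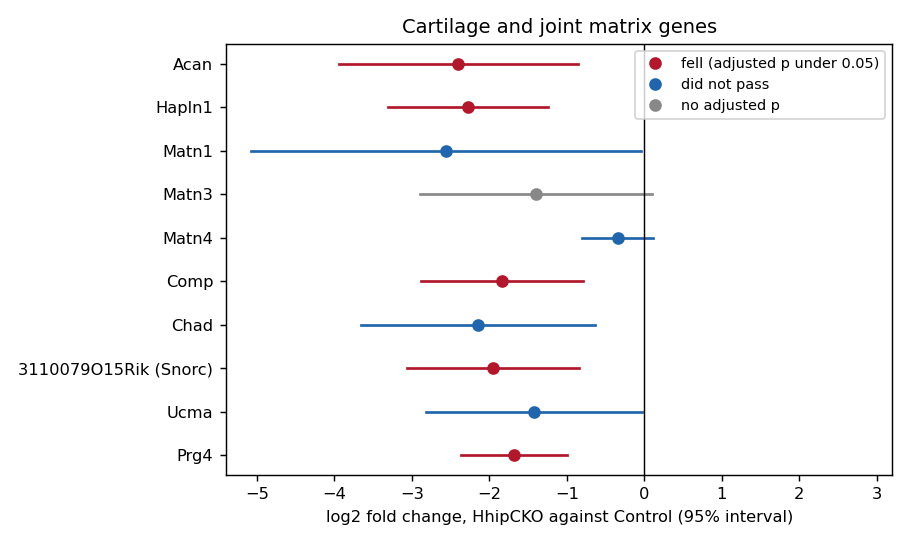
Change between HhipCKO and Control on the log2 scale, with 95% intervals, for each of the 10 genes, from the authors' deposited table. All points lie below 0, and the intervals of Matn3 and Matn4 reach past it.

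The core of the aggrecan complex fell to 18.9% of the Control level for Acan and to 20.7% for Hapln1. Acan encodes aggrecan, the proteoglycan that gives cartilage its resistance to compression. Its log2 fold change per the authors' deposited table was -2.40 ± 0.79 (SE), or 5.28-fold lower, and the 95% interval of the remaining level ran from 6.49 to 55.2% of Control (adjusted p = 0.0380, authors' Wald test). Hapln1 encodes the link protein that fastens aggrecan to hyaluronan. It had a log2 fold change of -2.27 ± 0.53 (SE) per the authors' deposited table, 4.84-fold lower, with 10.1 to 42.2% of Control remaining (adjusted p = 0.00124, authors' Wald test). Acan thus had the larger estimate and the weaker call, with a wider error. With the length trend removed the value of Acan was -2.22 and its adjusted p 0.0969, and without the filter on mean count its adjusted p was 0.0645. Hapln1 kept its call in both settings. Acan (ENSMUSG00000030607) lies on chromosome 7 from 79053483 to 79115099 and Hapln1 (ENSMUSG00000021613) on chromosome 13 from 89539796 to 89611652, both on the plus strand of GRCm38.

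The promoters of Acan, Hapln1 and Chad are shown because these genes had similar fold changes while the bases before their starts differ. Each line gives the 250 bases before the RefSeq start on GRCm38.p6, plus strand, 5′ to 3′, at chr7:79052976-79053225, chr13:89540386-89540635 and chr11:94564797-94565046. The RefSeq start of Chad is also the GENCODE start of the gene, that of Acan lies 257 bases before the GENCODE start given above, and that of Hapln1 lies 840 bases after it, inside the annotated gene. Which start these cells used is not known from the table. Capitals mark a TATAAA motif.

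Acan: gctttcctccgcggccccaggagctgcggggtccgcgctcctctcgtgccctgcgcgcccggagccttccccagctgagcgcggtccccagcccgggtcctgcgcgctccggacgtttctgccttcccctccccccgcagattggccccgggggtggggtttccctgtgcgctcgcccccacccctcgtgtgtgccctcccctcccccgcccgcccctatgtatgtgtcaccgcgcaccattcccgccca

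Hapln1: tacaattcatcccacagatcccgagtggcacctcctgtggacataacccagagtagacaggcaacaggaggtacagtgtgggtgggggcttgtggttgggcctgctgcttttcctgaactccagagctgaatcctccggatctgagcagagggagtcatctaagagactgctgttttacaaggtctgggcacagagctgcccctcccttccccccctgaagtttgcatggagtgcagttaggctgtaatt

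Chad: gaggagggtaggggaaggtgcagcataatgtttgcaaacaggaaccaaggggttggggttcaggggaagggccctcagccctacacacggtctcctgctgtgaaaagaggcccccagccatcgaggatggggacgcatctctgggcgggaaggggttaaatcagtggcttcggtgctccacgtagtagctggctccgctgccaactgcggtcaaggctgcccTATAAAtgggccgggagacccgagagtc

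The share of G and C was 74.4% in the Acan window, higher than in 95.4% of all 32851 windows, and 54.4% in the Hapln1 window. Chad, at 60.4%, has TATAAA starting 28 bases before its start, a motif found on either strand in 12.4% of windows of this length. RefSeq windows were at hand for 7 of the 10 genes, 8 windows in all since Matn4 has a pair of starts, and Comp, Prg4 and 3110079O15Rik had none. In those 8 windows 3 further motifs, searched on both strands and not overlapping TATAAA, had no match. These were ACAAAG and AACAAT, short forms of the site bound by SOX factors, and GACCACCCA, the core of the GLI site. They were present in 16.5, 9.42 and 0.225% of all windows, and no match says only that these letters are not in these windows.

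None of the 3 matrilins, adaptor proteins that bridge collagen and proteoglycan filaments, had a call. Matn1, the matrilin most restricted to cartilage, had the most negative estimate of the 10 genes, a log2 fold change of -2.56, but also the widest error at 1.28 (SE) per the authors' deposited table (adjusted p = 0.219, authors' Wald test). Its remaining level was anywhere from 2.98 to 96.6% of Control. Matn3, another cartilage matrilin, had a log2 fold change of -1.40 ± 0.76 (SE) per the authors' deposited table at a mean normalized count of 28.2. Without a filter on mean count its adjusted p was 0.430. Matn4, a matrilin made in many connective tissues, had a log2 fold change of -0.35 ± 0.24 (SE) per the authors' deposited table, with 57.2 to 108% of the Control level remaining (adjusted p = 0.412, authors' Wald test). Its interval, from -0.81 to 0.12, was the 1 of the 10 that did not include the tested genes' median of -1.96. The estimates of different genes come from the same libraries and their covariance is not given, so Matn4 was not tested against the others. The gene shares 149 exon bases with Rbpjl on the opposite strand, which had 0.50 ± 0.86 (SE) on the log2 scale per the authors' deposited table, and whether counting used strand is not stated. On GRCm38, Matn1 (ENSMUSG00000040533) lies on chromosome 4 from 130944385 to 130955475, Matn3 (ENSMUSG00000020583) on chromosome 12 from 8947929 to 8972028 and Matn4 (ENSMUSG00000016995) on chromosome 2 from 164389393 to 164405160.

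Of the genes for proteins that link collagen fibrils and cells, Comp fell and Chad, with a wider error, did not pass. Comp encodes cartilage oligomeric matrix protein, a thrombospondin of cartilage and tendon that binds several collagens. It fell to 28.0% of Control with an interval from 13.6 to 57.7% (log2 fold change -1.84 ± 0.53 SE, adjusted p = 0.0151 per the authors' deposited table). Chad encodes chondroadherin, a leucine-rich repeat protein that chondrocytes bind through an integrin. Its estimate was lower still, at 22.5% of Control and a log2 fold change of -2.15 ± 0.77 (SE), yet it missed the threshold (adjusted p = 0.0631 per the authors' deposited table). Over the alternatives the adjusted p of Chad ran from 0.0581 to 1, so it passed in none of them. Comp (ENSMUSG00000031849) lies on chromosome 8 from 70373558 to 70382066 and Chad (ENSMUSG00000039084) on chromosome 11 from 94565047 to 94569127 on GRCm38.

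Of the small chondrocyte proteins, 3110079O15Rik fell and Ucma did not pass. 3110079O15Rik encodes Snorc, a small membrane chondroitin sulfate proteoglycan of chondrocytes. The level remaining was 25.8% of Control with an interval from 12.0 to 55.5% (log2 fold change -1.96 ± 0.57 SE, adjusted p = 0.0147 per the authors' deposited table). It kept this call without the length trend, at -2.14. Ucma encodes a secreted, gamma-carboxylated protein found in the matrix around young chondrocytes. Its value was -1.43 ± 0.71 on the log2 scale (SE, adjusted p = 0.217 per the authors' deposited table), with 14.1 to 97.7% of Control remaining. 3110079O15Rik (ENSMUSG00000026258) lies on chromosome 1 from 87470271 to 87475482 and Ucma (ENSMUSG00000026668) on chromosome 2 from 4976122 to 4985748 on GRCm38.

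Prg4 had the smallest adjusted p of the 10 genes. It encodes lubricin, which synovial lining cells and surface chondrocytes secrete. Prg4 fell to 31.2% of Control with an interval from 19.4 to 50.1%, or 3.21-fold lower (log2 fold change -1.68 ± 0.35 SE, adjusted p = 0.000237 per the authors' deposited table). Among the 5 genes that fell it had the smallest fold change and the smallest error. Prg4 (ENSMUSG00000006014) lies on chromosome 1, minus strand, from 150449412 to 150466165 on GRCm38, and shares 204 exon bases with Tpr on the opposite strand. Tpr had a mean normalized count of 18206 and a value of -0.22 ± 0.08 on the log2 scale (SE, adjusted p = 0.0623), without passing, per the authors' deposited table, and whether reads were assigned by strand is not stated. Mesothelium and tendon or synovial lining, other places where lubricin is made, were read from their own markers. Counts by unadjusted p in these and the later lists cover both directions. No share over all genes was computed to set them against. None of 10 mesothelial markers passed in either direction in the authors' Wald test, with 2 at an unadjusted p under 0.05 and a median log2 fold change of -0.076. The mesothelial surface protein gene Msln stood at 0.17 ± 0.33 (SE), and Wt1 and Muc16, the lowest by adjusted p, at -1.04 ± 0.43 and -0.66 ± 0.30 (SE) per the authors' deposited table (adjusted p = 0.122 and 0.159). Of 7 tested tendon and synovial lining genes none passed, with 1 at an unadjusted p under 0.05 and a median of 0.041. The eighth gene of that list, Kera, which encodes the small proteoglycan keratocan of cornea and tendon, had a mean normalized count of 16.2 and so no adjusted p. Its log2 fold change was -3.37 ± 0.97 (SE, unadjusted p = 0.000509) per the authors' deposited table, in the direction of Prg4, and without a filter on mean count it passed, with an adjusted p of 0.0244. Clic5 and Mkx of that list had log2 fold changes of -0.98 ± 0.42 and 0.95 ± 0.51 (SE) per the authors' deposited table.

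The abundance of these transcripts was compared per kilobase of the longest annotated transcript, using group levels implied by the mean count and the fold change. In Control, Chad stood far above the rest at 9581 normalized counts per kb, and it made up 64.8% of the sum over the 10 genes. Matn4 at 1305 and Acan at 1035 per kb came next, followed by Comp at 803, Prg4 at 614, Ucma at 596 and 3110079O15Rik at 466. Hapln1 at 231, Matn1 at 131 and Matn3 at 13.6 per kb were the lowest. Implied HhipCKO levels were 2155 per kb for Chad, 1028 for Matn4 and 225 for Comp. Ucma at 221, Acan at 196 and Prg4 at 191 per kb were close to each other. 3110079O15Rik was at 120, Hapln1 at 47.8, Matn1 at 22.2 and Matn3 at 5.14 per kb. The sum over the 10 genes was 14777 per kb in Control and 4212 in HhipCKO. The share held by Matn4 was 8.83% of the Control sum and 24.4% of the HhipCKO sum. No error is given for a level, so neighbours in this order, such as Prg4 and Ucma, cannot be separated. Among all tested genes the mean count per kb of Chad lay at percentile 92.8, while those of Acan and Matn4 lay at 49.7 and 65.2 and that of Hapln1 at 24.5.

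**Figure D2:**
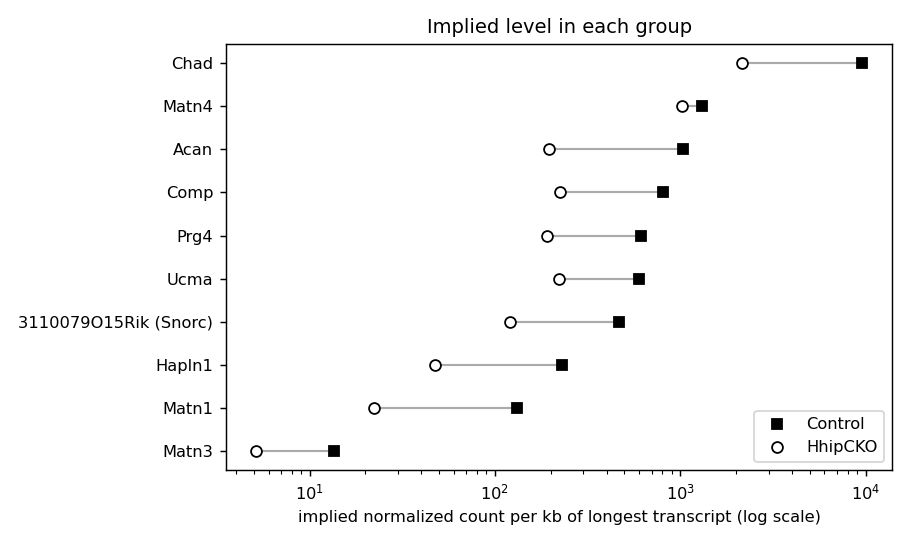
Implied level of each of the 10 genes in Control (filled squares) and HhipCKO (open circles), in normalized counts per kb of the longest transcript on a log axis. Chad runs from 9581 to 2155 per kb, and Matn4 has the shortest line.

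The errors of these genes were wide for their abundance. The median standard error over the 9 tested genes was 0.57 on the log2 scale, against 0.19 over all tested genes, and each of the 10 exceeded the median of tested genes whose mean count was within a factor of 1.5 of its own. Acan, for example, had a standard error of 0.79, larger than in 99.5% of 3052 genes of like count, whose median was 0.13. Chad exceeded 99.6% of 2288 such genes. Matn4, at 0.24, exceeded 85.3% of 3046. A standard error in a negative binomial fit with 4 libraries a group implies a coefficient of variation between libraries of the same group beyond counting error. This was 77.2% for Acan, 75.5% for Chad, 125% for Matn1 and 69.5% for Ucma, and 71.8% for the untested Matn3. It was lower for Comp at 52.1%, Hapln1 at 51.3% and 3110079O15Rik at 54.6%, and lowest for Prg4 at 34.0% and Matn4 at 23.0%. The median of all tested genes was 18.6%. These values describe the fit, and how far it drew each gene's spread towards that of genes of like count is not given. Which libraries were high or low could not be analysed without values per library. Whether a few libraries carried most of the cartilage transcripts was not tested.

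**Figure D3:**
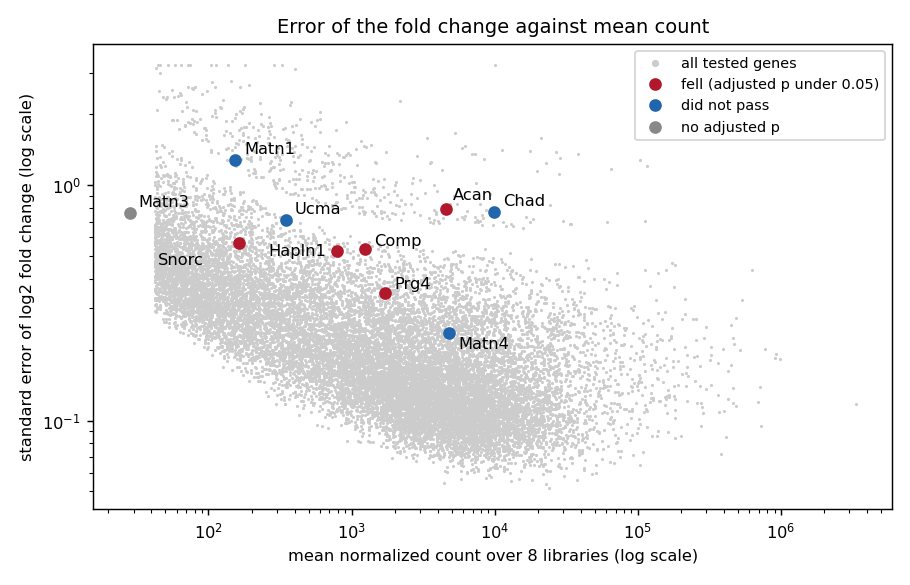
Standard error of the log2 fold change against mean normalized count, both on log axes, for all tested genes (grey) and the 10 cartilage and joint matrix genes (red where they fell). Acan and Chad, at 0.79 and 0.77, sit above most genes of like count, and Matn4 at 0.24 has the smallest error of the 10.

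That spread set what could be called. The smallest Wald statistic that passed in the authors' deposited table was 2.92, so a gene had to change by that many standard errors. For Matn1 this meant a 13.4-fold change, for Acan 4.93-fold, for Chad 4.75-fold and for Ucma 4.22-fold. For Prg4 a 2.02-fold and for Matn4 a 1.61-fold change would have passed. The 4 tested genes without a call differed in their estimates and in the change needed. Matn1, Chad and Ucma were estimated 5.90-, 4.45- and 2.69-fold lower, and Matn4 1.27-fold lower. They were not tested against each other, and a missing call shows neither a fall nor an unchanged level.

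Related matrix genes were described from lists of the same complexes. Among 8 tested genes for link proteins, other lecticans and hyaluronan, Has3, a hyaluronan synthase, fell and none rose. Its log2 fold change was -1.11 ± 0.16 (SE, adjusted p = 5.51e-09 per the authors' deposited table). The list's median was -0.23, and Vcan, the lecticans' versican, had -0.59 ± 0.25 (SE, adjusted p = 0.131) per the authors' deposited table. None of 5 relatives of the matrilins and of Comp passed, and none had an unadjusted p under 0.05 in the authors' Wald test. Thbs1, Thbs3 and Matn2 had log2 fold changes of -0.80 ± 0.44, -0.08 ± 0.16 and 0.06 ± 0.23 (SE) per the authors' deposited table. The list's median was -0.16.

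Of 12 tested genes for other secreted cartilage proteins, 3 fell, none rose and 9 did not pass, with a median of -0.91. Those that fell were Clec3a, a cartilage lectin, at -2.14 ± 0.63, Cytl1, a secreted chondrocyte protein, at -2.06 ± 0.70 and Mia, a small secreted chondrocyte protein, at -1.58 ± 0.52 (log2 fold change, SE, per the authors' deposited table). Their adjusted p were 0.0179, 0.0449 and 0.0400 per the authors' deposited table. Mgp and Prelp, widely made in connective tissue, had 0.18 ± 0.11 and -0.31 ± 0.25 (SE) on the log2 scale per the authors' deposited table. Cytl1 and Mia did not pass without a filter on mean count, at adjusted p of 0.0761 and 0.0680.

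Genes for chondroitin sulfate synthesis and for aggrecan-cleaving proteases and an inhibitor did not pass. None of 20 tested genes of chondroitin sulfate synthesis had an adjusted p under 0.05 in the authors' Wald test, and the median log2 fold change was 0.0040. By unadjusted p under 0.05 there were 4, with Chst11 lower and Chpf2, B4galt7 and Xylt2 higher, a count with no share over all genes beside it. The sulfotransferase gene Chst11 and the polymerizing factor gene Chpf2 came closest, at -0.44 ± 0.18 and 0.24 ± 0.11 (SE, adjusted p = 0.121 and 0.151) per the authors' deposited table. Of 8 proteases and inhibitors that act on aggrecan none passed, 1 had an unadjusted p under 0.05, all 8 values were negative and the median was -0.26. Timp3, which inhibits aggrecanases, had -0.24 ± 0.08 and Adamts9 -0.40 ± 0.25 (SE) on the log2 scale per the authors' deposited table.

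Of 8 tested cartilage collagens, 4 fell and none rose, with a median of -2.03. Col27a1, a fibrillar collagen of cartilage and other tissues, stood apart from that median, at -0.11 ± 0.16 on the log2 scale (SE, adjusted p = 0.758) per the authors' deposited table and a mean normalized count of 16546. Those that fell were Col11a2, Col9a1, Col9a3 and Col10a1, at -1.86 ± 0.48, -2.18 ± 0.63, -1.39 ± 0.40 and -2.33 ± 0.76 (SE) on the log2 scale per the authors' deposited table. Col10a1 missed the threshold without a filter on mean count and once the length trend was taken out, at adjusted p of 0.0611 and 0.0567. Col2a1, the main cartilage collagen, had -2.25 ± 0.83 (SE) and an adjusted p of 0.0730 per the authors' deposited table, and its implied coefficient of variation was 81.2%. Among 9 tested chondrogenic transcription factors Pax9 alone passed, at -2.51 ± 0.55 (SE, adjusted p = 0.000539) per the authors' deposited table and a mean normalized count of 44.9. In that list 8 values were negative, the median was -0.42, and 4 genes had an unadjusted p under 0.05 in the authors' Wald test. Sox9, the factor required for cartilage formation and also made in other lung cells, had -0.60 ± 0.27 (SE, adjusted p = 0.155) per the authors' deposited table.

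**Figure D4:**
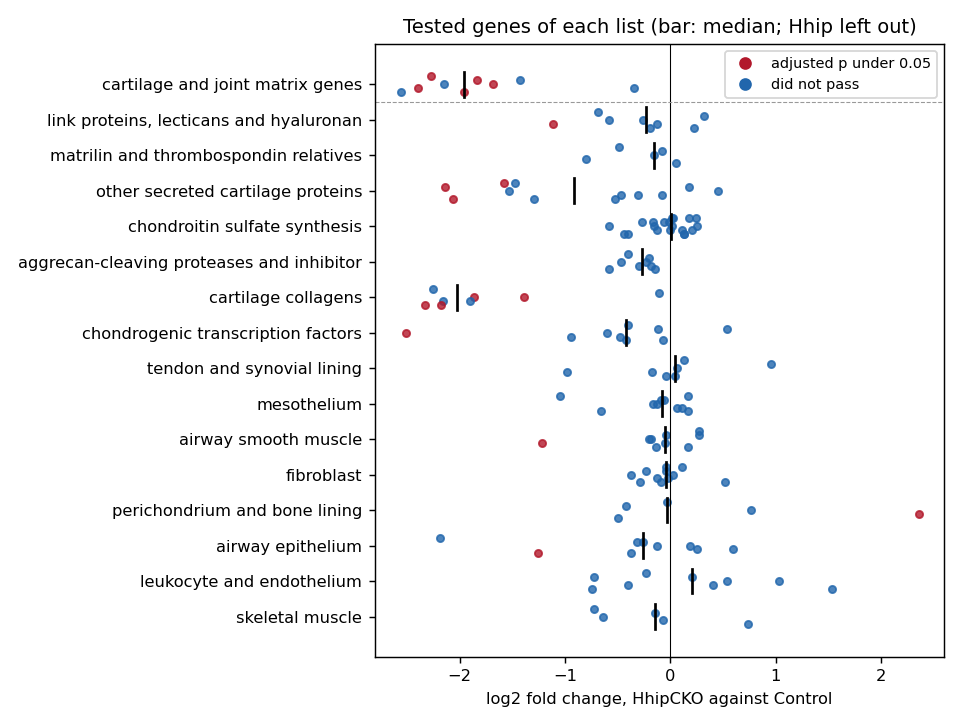
Log2 fold change of every tested gene in each list, with the list's median as a bar and genes past the adjusted p of 0.05 in red. The cartilage and joint matrix genes (median -1.96) and the cartilage collagens (median -2.03) lie lowest, and the fibroblast and chondroitin sulfate synthesis lists centre near 0.

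Markers of the main mesenchymal cells were read beside these genes. None of 11 fibroblast markers passed in the authors' Wald test, 1 had an unadjusted p under 0.05 and the median was -0.044. Col1a1, the main fibrillar collagen, had -0.09 ± 0.20, and Gsn and Tcf21, lowest by adjusted p, had -0.29 ± 0.12 and 0.52 ± 0.28 (SE) on the log2 scale per the authors' deposited table. Of 9 airway smooth muscle markers, Hhip left out, Myocd fell, at -1.22 ± 0.31 (SE, adjusted p = 0.00334) per the authors' deposited table, and the median was -0.050. Myh11, whose promoter drives a recombinase in HhipCKO mice, had -0.14 ± 0.33 (SE) on the log2 scale per the authors' deposited table. Of 5 tested markers of perichondrium and bone lining, Ibsp, which encodes bone sialoprotein, rose, at 2.36 ± 0.53 (SE, adjusted p = 0.000768) per the authors' deposited table, opposite in sign to the 10 cartilage genes, and the other 4 did not pass.

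Tissues that border large airway cartilage were read as well. Of 9 airway epithelial markers Muc5b, a secreted mucin, fell, at -1.26 ± 0.35 (SE, adjusted p = 0.0106) per the authors' deposited table, and the list's median was -0.26. In that list 6 values were negative and 3 positive. The positive ones were Epcam, Scgb1a1 and Scgb3a2, at 0.59 ± 0.48, 0.25 ± 0.71 and 0.19 ± 0.55 (log2 fold change, SE). Mean normalized counts were 71.1 for Muc5b and 6098 for Scgb1a1. With Muc5b, 2 of the 9 had an unadjusted p under 0.05. The other was Ltf, which encodes the secreted protein lactotransferrin, at -2.19 ± 0.77 on the log2 scale (SE, adjusted p = 0.0574) per the authors' deposited table, a value in the range of the cartilage genes. Muc5b lost its call once the length trend was removed (-0.89, adjusted p = 0.147). None of 5 tested skeletal muscle genes passed in the authors' Wald test, 1 had an unadjusted p under 0.05 and the median was -0.14, with Tnnt3 and Myh2 at -0.72 ± 0.25 and -0.64 ± 0.66 (SE) per the authors' deposited table. None of 9 leukocyte and endothelial markers passed, none had an unadjusted p under 0.05, and the median was 0.21. In this pooled list 5 values were positive and 4 negative. The positive ones were the leukocyte genes Ptprc, Cd68, Lyz2 and Cd79a and the endothelial gene Vwf. Lyz2 had 1.53 ± 1.35 and Cdh5, an endothelial gene, -0.73 ± 0.37 (SE) on the log2 scale per the authors' deposited table. How much large airway tissue each library held is not given in the labels, and its part in the result, or that of Muc5b and Ltf expressing cells, was not tested.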

How the data were processed

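FastQC, STAR and DESeq were used on GRCm38 (mm10), per the submitters' processing notes. Their versions, the annotation, the counting tool and its use of strand are not given in the sources used here. Per the file headers, the authors' deposited table gives the mean normalized count signal over all libraries, the log2 fold change with its standard error, the Wald score, its p-value and a p-value after adjustment, with 0 columns per library. The deposited Wald score equals the log2 ratio over its error to within 2.56e-07, and adjusted p-values equal Benjamini-Hochberg values over 17469 genes, the lowest mean count among them being 42.1, to within 0.000252.

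The table holds no counts per library, so no edgeR fit was made and the authors' Wald test served, at an adjusted p of 0.05 over all genes tested. Folds and 95% intervals assume a normal distribution. They measure spread between these libraries, which may be technical.

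Group levels and the coefficient of variation were solved from mean count, fold change and standard error for a negative binomial fit, with size factors taken from genes whose counts, assumed to be 2, all lie in 1 library (8 levels of at least 20 genes). Longest transcripts and coordinates came from GENCODE M21 on GRCm38, with 31509 identifiers matched to a transcript, and promoters from RefSeq on GRCm38.p6. The length trend was a lowess curve with a span of 0.3 (Python 3.11.15, statsmodels 0.14.6). The calls and the solved spread were tested on simulated data. Alternatives were another filter on mean count, median centring, the length trend, robust scaling of Wald statistics and a 1.5-fold minimum.

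The 10 genes and the related lists were chosen with earlier results of these data known. List genes are named where past the threshold, or else as the lowest 2 by adjusted p, with a few defining genes. Vcan, Matn2, Mgp, Prelp, Kera, Ltf, Col27a1, Scgb1a1, Scgb3a2, Lyz2, Rbpjl and Tpr were added after their values were seen. Myod1 was not found. Counts by unadjusted p in the related lists cover both directions, for which no share over all genes was computed.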

Additional observations from a re-analysis of the deposited data

How the results depend on the processing

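The count of cartilage and joint matrix genes called stayed at 5 with median-centred fold changes and with a mean count of at least 100, and was 4 once the length trend was removed or no filter was applied. It was 0 under robust scaling of the Wald statistics and 0 against a minimum of 1.5-fold. The count over all genes, 1219, was 960 without a filter, 1240 at a mean count of at least 100 and 1264 with centring. It was 539 with the length trend removed, 18 with robust scaling and 8 with the 1.5-fold minimum. Of the alternatives, only centring and the length trend alter a fold change, and centring does so by only 0.019. Neither reversed a sign among the 9 tested genes. The shifts were smaller than the fold changes, so the kept signs say little. Col27a1, which passed in no setting, had a value of 0.088 on the log2 scale with the length trend removed, opposite in sign to its deposited value. Leaving out each replicate, TMM normalization and refits were not run, since they need counts per library. No paired analysis was possible because the table holds no value per library. Matn3 had a low mean count, 28.2, and a standard error of 0.76. Standard errors of 1.28, 0.77 and 0.71 set the precision for Matn1, Chad and Ucma.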
